A study of Fragaria vesca with 12 samples.

Results

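The genes described here are those that build cellulose in the strawberry cell wall and those that cut cellulose and other sugar chains of the wall. Their members were all genes whose deposited description contained the words cellulose synthase, cellulase, glycosyl hydrolase 9, beta-galactosidase, beta-glucosidase (also spelled without the hyphen), beta-xylosidase or COBRA, in upper or lower case. This rule used no measured value and gave 120 of the 34008 genes of the table. By their descriptions, 10 were cellulose synthases, 20 cellulose synthase-like proteins, 14 COBRA proteins, 24 cellulases of glycosyl hydrolase family 9 (GH9), 17 beta-galactosidases, 32 beta-glucosidases and 2 beta-xylosidases, and 1 was a cellulase of another family. RNA-seq had been done on ripe fruit labelled *Fragaria vesca* 'Mara des Bois' in 4 conditions with 3 libraries each, and each library was labelled as a pool of at least 50 strawberries. The cultivar name is also used of a hybrid garden strawberry, and in a hybrid the reads of near-identical copies from its several genomes would be summed on 1 gene of the *F. vesca* annotation. Fruit sampled 2 h after harvest (AH) served as the control, and non-cold stored fruit (NCS) had spent 2 days at 20°C and 80% relative humidity. Air-cold stored fruit (ACS) had spent 7 days at 1°C in air and CO2-cold stored fruit (CCS) the same 7 days at 1°C, of which 2 were under 18% CO2, 18% O2 and 64% N2 and 5 in air, and both then spent 1 day at 20°C. The study's methods describe a single container for each of the cold-stored conditions, so that an effect of CO2 and an effect of the container cannot be told apart.

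Cellulose is made at the plasma membrane by complexes of cellulose synthase (CesA) subunits, and in Arabidopsis the CesA1, CesA3 and CesA6 types serve the primary wall, whereas the CesA4, CesA7 and CesA8 types serve the secondary wall. COBRA proteins, which are anchored to the membrane by a lipid, and the membrane-bound GH9A cellulase KORRIGAN are also needed for normal cellulose deposition in Arabidopsis, while most other GH9 cellulases are secreted and cut glucan chains in the wall. Beta-galactosidases remove galactose from side chains such as those of pectin, beta-xylosidases release xylose from xylan, and beta-glucosidases act on many glucosides besides those of the wall. Several of these hydrolases have long been studied for their part in the softening of strawberry fruit.

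The deposited values are RPKM (reads per kilobase of gene and per mega of reads), and the libraries held 64.2 to 119.9 M reads, as recovered from the values themselves. The 6 libraries of each pair of conditions entered a limma fit on the log2(RPKM + 0.1) scale, which understates the change of low genes, and a gene was tested where 3 of the 6 reached 0.5 RPKM. A gene below 0.5 RPKM throughout 1 condition was thus tested only where all libraries of the other condition reached it. Below, a gene passed at a Benjamini-Hochberg adjusted p of 0.05 or less, and it was called a differentially expressed gene (DEG) when its log2 fold change, always the second condition over the first, was also at least 1.5 in size. AH replicate 1 stood apart for the members. Of the 60 members tested against AH, 45 (75.0%) were lowest among the AH libraries in that replicate, compared with 46.9% of 16975 genes, and its ratio to the mean of the other 2 AH libraries had a median of 0.82 for the members and 0.969 for all genes. Summed levels of genes typical of ripe strawberry flesh were high in every library. They were 1484 to 3066 RPKM for 37 expansins, of which 16 reached 0.5 RPKM. For 102 genes described as pectate lyase or pectin lyase-like, of which 24 reached it, they were 1385 to 2778 RPKM. Genes of other tissues differed between the conditions. The 61 genes of the photosystems had sums of 103 to 132 RPKM in AH, and those of NCS, ACS and CCS were 46.6 to 49.2, 55.6 to 70.3 and 67.2 to 76.2. A list of 179 genes taken as seed genes by their descriptions summed to 14936 to 16173, 8154 to 8299, 9036 to 10933 and 7808 to 9575 RPKM. It holds mostly late embryogenesis abundant and lipid-transfer or 2S albumin superfamily proteins. Beside AH, 25 of its 85 genes tested were higher and 43 lower in NCS. In ACS 40 of 91 were higher and 21 lower, and in CCS 37 of 93 were higher and 14 lower. Its sums in ACS and CCS thus fell although more of its genes rose. Its 12 oleosins and caleosins, which coat the oil bodies of seeds, summed to 1258 to 1750, 313 to 413, 1003 to 2116 and 523 to 1684 RPKM. The 54 genes of lignified tissue, of which 14 reached 0.5 RPKM, summed to 31.2 to 35.4, 39.3 to 41.4, 53.3 to 63.1 and 37.4 to 41.6 RPKM. Of the 11 tested, 2 were higher and 5 lower in NCS than in AH, 2 and 3 in ACS and 1 and 3 in CCS. More of these genes thus fell than rose while their sums were higher. The part of these tissues in the results below was not tested, and in fruit RNA fewer cells of a type and less RNA per cell cannot be told apart.

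The members differed widely in level. In 65 of the 120 a library reached 0.5 RPKM and in 24 a library reached 10 RPKM, whereas 32 stayed below 0.1 RPKM in all 12 libraries and 5 of these were listed at 0 throughout. In all, 61 members were tested in at least 1 comparison, namely 16 beta-glucosidases, 12 cellulose synthase-like genes, 10 GH9 cellulases, 8 beta-galactosidases, 7 cellulose synthases, 6 COBRA genes, 1 beta-xylosidase and the cellulase of another family. The pair of GH9 cellulases *FvH4_4g33940* and *FvH4_5g04490* carried 65.6% of the summed RPKM of all 120 members at harvest (AH). In NCS, ACS and CCS they carried 59.3, 54.8 and 59.6%. The summed level of the 24 GH9 genes was 1484 ± 114 RPKM in AH (SD, n = 3), 1018 ± 43.0 in NCS, 818 ± 42.2 in ACS and 925 ± 34.4 in CCS. In the 17 beta-galactosidases the sums were 157 ± 14.8, 160.5 ± 5.61, 112 ± 3.12 and 125 ± 3.49 RPKM. The 32 beta-glucosidases went the other way from the cellulases, with sums of 43.1 to 49.5 RPKM at harvest, whereas NCS, ACS and CCS libraries had 59.2 to 60.5, 60.5 to 62.9 and 52.9 to 53.9. Of the 51 members tested in all 6 comparisons, AH had the highest mean for 25 (49.0%), NCS for 7 (13.7%), ACS for 12 (23.5%) and CCS for 7 (13.7%). Over 15518 genes tested in all comparisons these shares were 32.9, 14.5, 22.1 and 30.6%. Without AH replicate 1, 29 of the 51 members were highest in AH and 5 in CCS, and the shares over all genes were not computed for that setting.

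**Figure D1:**
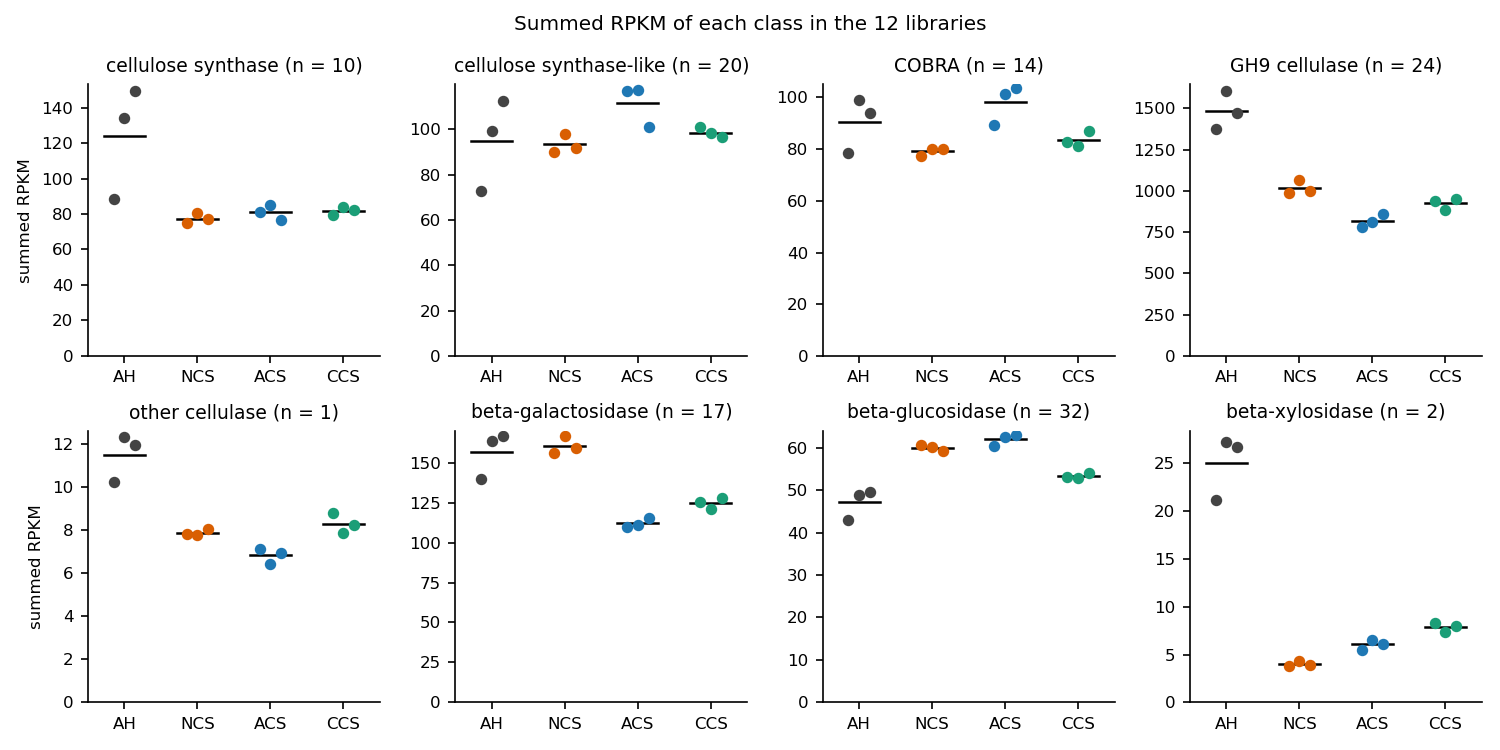
Summed RPKM (y axis, from 0) of each class of members in the 4 conditions (x axis). Each point is 1 library and each bar the mean of 3, and n is the number of genes in the class. The cellulose synthases of the first AH library summed to 88.3 RPKM, below 134 and 149 in the other AH libraries, and the beta-xylosidases fell from 21.2 to 27.2 RPKM in AH to 3.77 to 4.28 in NCS.

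The comparisons with AH asked what changed in fruit kept at 20°C and in fruit stored cold. Against AH, more members were lower than higher in each stored condition, although the largest changes were rises. The largest rise in each was that of a gene near 0 RPKM in AH, which was tested only because the stored libraries reached the filter. In NCS, 13 of the 54 members tested were higher and 23 were lower (24.1% and 42.6%), beside 14.7% and 21.4% of all 16092 genes tested, and 4 members were DEGs higher and 4 lower, beside 3.98% and 2.36% of all genes. In ACS, 15 of 58 were higher and 23 lower, beside 21.9% and 20.9% of 16672 genes, with 9 DEGs higher and 3 lower, beside 7.15% and 1.4%. In CCS, 12 of 59 were higher and 21 lower, beside 23.6% and 13.9% of 16622 genes, with 5 DEGs higher and 3 lower, beside 5.47% and 1.15%. The median log2 fold change of the tested members was -0.31 in NCS, -0.28 in ACS and -0.09 in CCS, whereas that of all genes was -0.07, 0.01 and 0.07. Without AH replicate 1, 29, 30 and 27 members were lower and 14, 13 and 12 higher. The falls over all genes grew as well, to 4435, 4238 and 3071 lower from 3446, 3483 and 2314 with every library. Higher without that replicate were 2812, 4190 and 4774 of all genes, in place of 2367, 3648 and 3920. No single library left out moved the counts of members by over 1.5 times. These 3 comparisons share the AH libraries.

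The comparisons among the stored conditions set cold-stored fruit, with or without CO2, beside fruit kept at 20°C. NCS had 2 days at 20°C, whereas ACS and CCS had 7 days at 1°C and 1 day at 20°C. Cold and time since harvest thus cannot be told apart. From NCS to ACS, 23 of the 56 members tested were higher and 14 lower, beside 30.9% and 17.1% of 16341 genes, and 1 was a DEG higher and 0 lower, beside 3.1% and 0.226%. From NCS to CCS, 20 of 56 were higher and 10 lower, beside 37.6% and 14% of 16405 genes, with 4 DEGs higher and 0 lower, beside 3.05% and 0.677%. This split depended on the scale. After median-of-ratios scaling 15 members were higher and 16 lower in CCS, and 2 were DEGs. Of the 16405 genes, 3563 were then higher and 4567 lower, in place of 6170 and 2294. Between ACS and CCS, 13 of 59 members were higher in CCS and 15 lower, beside 18.4% and 10.3% of 16680 genes, or 6 and 15 after that scaling, beside 1369 and 2046 of all genes. Without ACS replicate 2 the counts were 8 and 8, and without CCS replicate 3 they were 7 and 10. Over all genes they were 1428 and 1093, and 1654 and 1211. No member was a DEG between ACS and CCS by limma, beside 0.024% of genes higher and 0.294% lower. An unadjusted p under 0.05 was found for 36 of the 59, beside 7003 of the 16680 genes. With limma's voom on the recovered reads 1 member was called there.

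**Figure D2:**
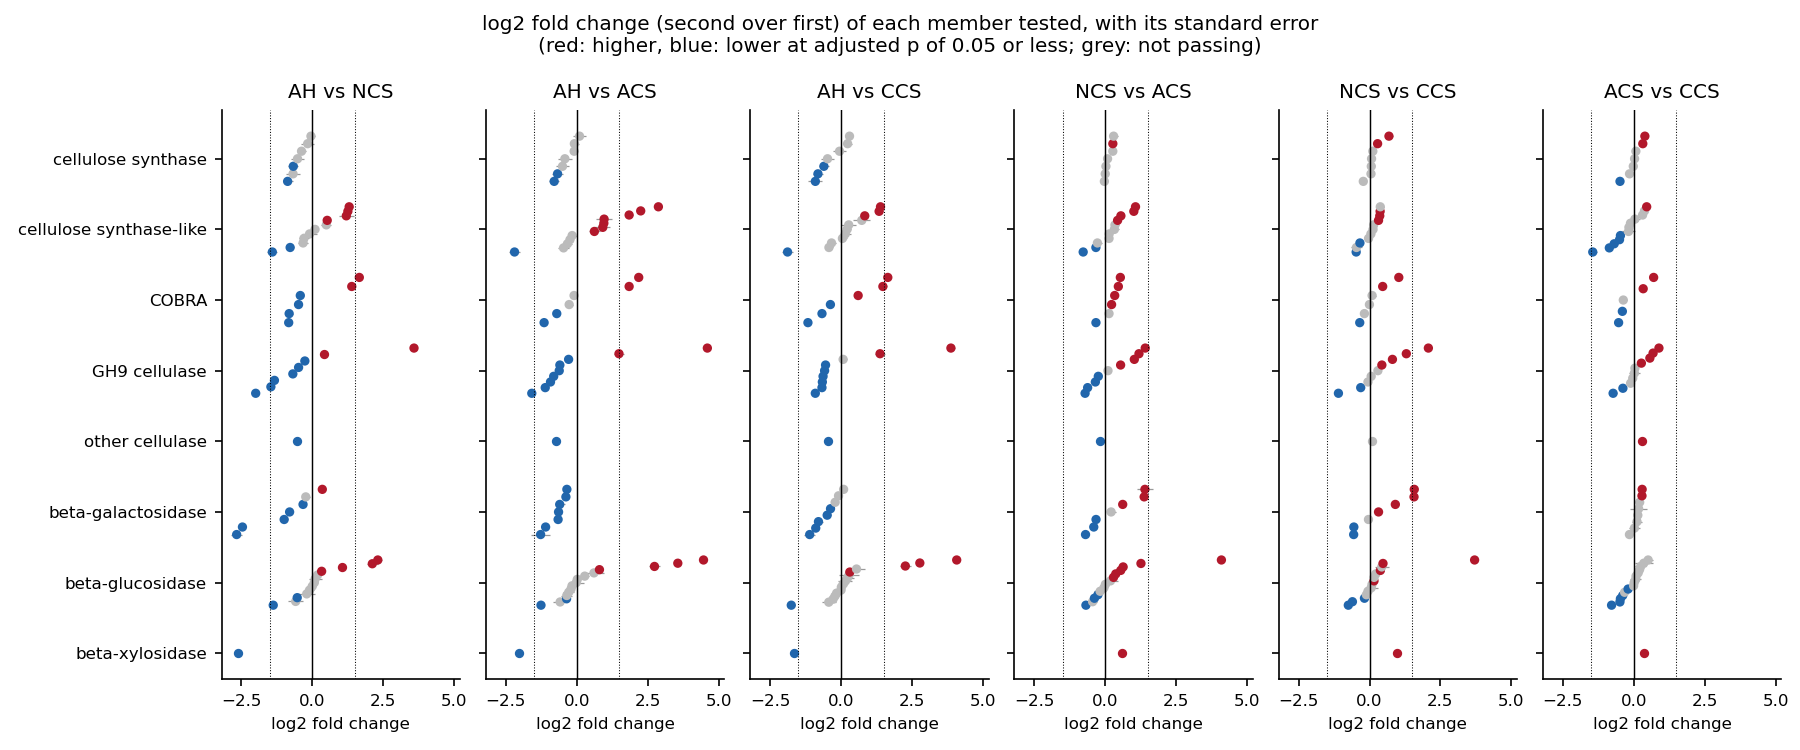
The log2 fold change (x axis, second condition over the first) of each member tested in the 6 comparisons, by class (y axis), with its standard error. Red and blue points passed an adjusted p of 0.05 as higher and lower, grey points did not, and dotted lines stand at 1.5 in either direction. The GH9 cellulases lay mostly below 0 against AH, except cellulase 3 at 3.58, 4.60 and 3.87.

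The 3 most abundant cellulose synthase subunits, of the CesA1, CesA3 and CesA6 types, had their highest means in AH, while 2 other CesA6-type genes differed from them. Of the 7 subunits tested, 2 were lower in NCS, 2 in ACS and 3 in CCS, or 5, 4 and 4 without AH replicate 1, and 0 were higher. Over all genes 21.4, 20.9 and 13.9% were lower and 14.7, 21.9 and 23.6% higher, so that the 2 falls in NCS and ACS lay near that share. The CesA1-type *FvH4_2g29420* was at 30.2, 47.7 and 46.9 RPKM in the AH libraries, 21.5, 22.6 and 22.5 in NCS, 22.9, 24.1 and 23.5 in ACS and 22.6, 23.3 and 23.6 in CCS. Every AH library was above every stored library, and the first AH library was the lowest of the 3. Its log2 fold changes from AH were -0.87 (SE 0.18, limma adjusted p = 0.00906), -0.79 (SE 0.18, adjusted p = 0.013) and -0.81 (SE 0.18, adjusted p = 0.0132). A CesA6-type gene, *FvH4_5g26830*, had 21.9, 32.5 and 35.6 RPKM in AH and 17.8 to 19.8 RPKM in all 9 stored libraries. Its falls on the log2 scale were by 0.67, 0.67 and 0.60 in NCS, ACS and CCS (limma adjusted p = 0.0259, 0.0249 and 0.0401). These calls of *FvH4_5g26830* were lost when AH replicate 2 or 3 or any stored library was left out (adjusted p = 0.0514 to 0.129), and not when AH replicate 1 was, and that of CCS also with no filter (adjusted p = 0.0661). *FvH4_7g01100*, which the second description of the table names as the CesA3 type, was at 24.6, 37.5 and 46.5 RPKM in AH and 22.3 to 26.6 in the stored libraries. Its groups overlapped in the first AH library only, and the log2 fold changes of -0.52, -0.50 and -0.47 did not pass (limma adjusted p = 0.113, 0.128 and 0.145). Without AH replicate 1 they were -0.78, -0.75 and -0.73 and passed (adjusted p = 0.00286, 0.00572 and 0.00378).

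The summed level of the 10 cellulose synthases was 88.3, 134 and 149 RPKM in AH, 74.8, 80.4 and 77.2 in NCS, 81.4, 84.8 and 76.8 in ACS and 79.3, 83.8 and 82.0 in CCS. The spread among the AH libraries was thus wider than among those of any stored condition. The other CesA6-type genes differed from *FvH4_5g26830*. *FvH4_1g23890* was at 5.98 ± 1.97 RPKM in AH (SD, n = 3), 3.55 ± 0.186 in NCS, 4.31 ± 0.554 in ACS and 3.04 ± 0.264 in CCS, and it was lower in CCS than in AH (-0.90, limma adjusted p = 0.0265) and than in ACS (-0.49, adjusted p = 0.024). The former was lost without AH replicate 2 or any CCS library (adjusted p = 0.0619 to 0.0881), the latter without ACS replicate 1 or 2 or CCS replicate 1 or 3 (adjusted p = 0.0592 to 0.0805), with no filter (adjusted p = 0.055) or with all 12 libraries in one fit (adjusted p = 0.118). *FvH4_2g13380* stayed between 4.02 and 4.86 RPKM in the means of all conditions, and its values in AH overlapped with all others. A cellulose synthase family gene with no subunit number, *FvH4_3g07420*, was at 4.50, 4.30, 4.20 and 5.25 RPKM in AH, NCS, ACS and CCS, and was higher in CCS than in NCS (0.28, limma adjusted p = 0.0162) and ACS (0.32, adjusted p = 0.0168). Neither difference passed after median-of-ratios scaling (0.11 and 0.24, adjusted p = 0.29 and 0.0689) or with all 12 libraries in one fit (adjusted p = 0.0824 and 0.094), and the latter was also lost without CCS replicate 3 (adjusted p = 0.0579). The secondary wall types were scarce. The CesA7-type *FvH4_1g00670* was at 0.636, 0.551 and 0.708 RPKM in AH, 0.583, 0.427 and 0.386 in NCS, 0.677, 0.516 and 0.573 in ACS and 0.752, 0.891 and 0.757 in CCS. The CCS libraries were the highest of all 12, and the difference passed against NCS (0.68, limma adjusted p = 0.00705) and ACS (0.39, adjusted p = 0.0387) but not against AH (0.30, adjusted p = 0.0803). The call of *FvH4_1g00670* against ACS was lost in 5 other settings that keep all libraries (adjusted p = 0.0607 to 0.0822) and without any cold-stored library other than ACS replicate 1 (adjusted p = 0.0642 to 0.108). The cellulase *FvH4_5g27130* (GH9A1, the family of KORRIGAN) was chosen after its values had been seen. It had 66.1, 76.1 and 71.2 RPKM in AH and 42.7 to 49.7 RPKM in the 9 stored libraries. Its log2 fold changes from AH were -0.69, -0.59 and -0.63 (SE 0.08, 0.09 and 0.08), each past the limit (limma adjusted p = 0.000811, 0.00206 and 0.00134).

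**Figure D3:**
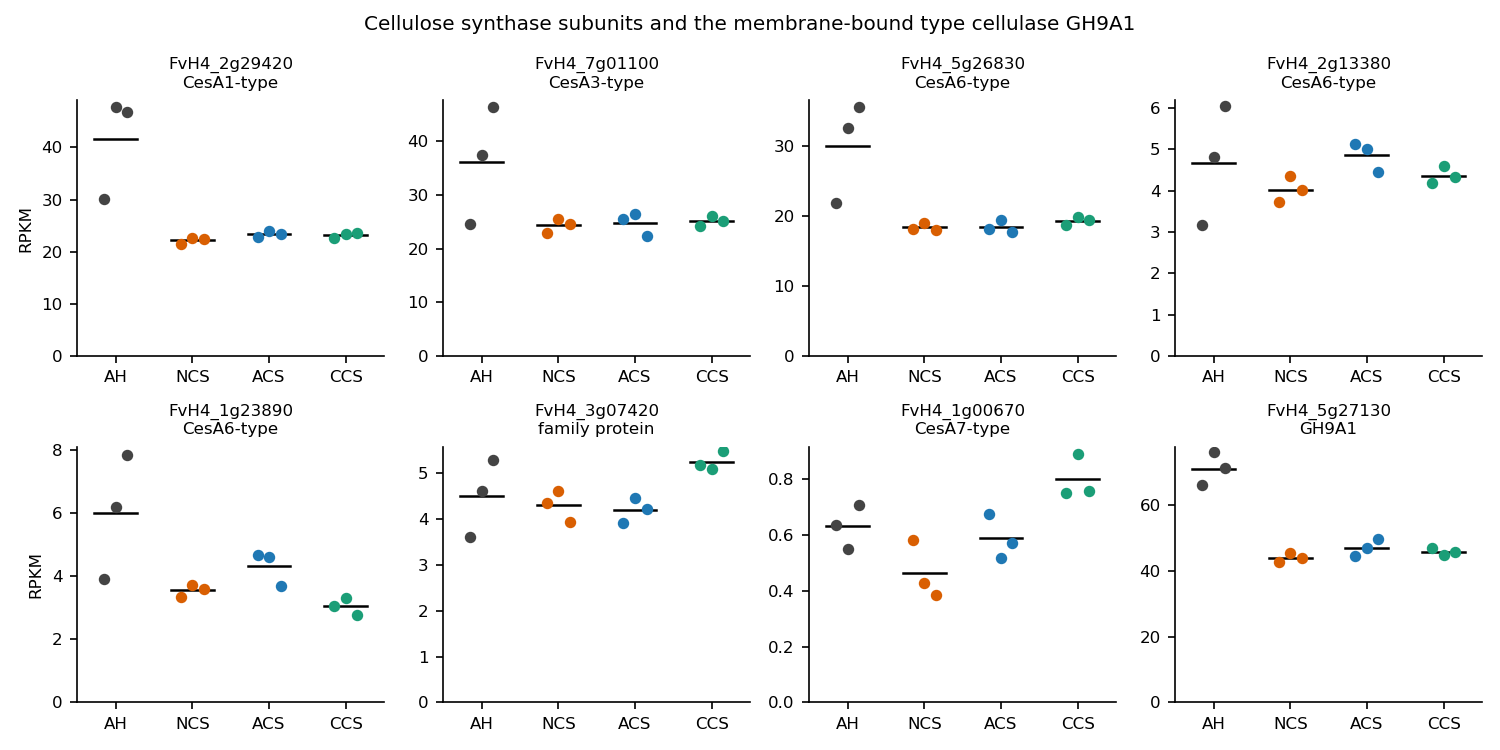
RPKM (y axes, from 0, each on its own scale) of 7 cellulose synthase subunits and the GH9A1 cellulase *FvH4_5g27130* in the 12 libraries, by condition (x axis). Points are libraries and bars are means of 3. The first AH library of *FvH4_7g01100* lay at 24.6 RPKM, among the stored libraries, and the AH libraries of *FvH4_5g27130* lay at 66.1 to 76.1, above all stored ones.

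The cellulose synthase-like (Csl) genes, which make other backbone chains of the wall or have roles that are not all known, moved in both directions. Against AH, 4 of 11 were higher and 2 lower in NCS, 7 of 12 higher and 1 lower in ACS and 3 of 11 higher and 1 lower in CCS. Without AH replicate 1 these counts were 5 and 4, 5 and 5, and 3 and 3. With every library, 14.7, 21.9 and 23.6% of all genes were higher and 21.4, 20.9 and 13.9% lower. The 2 of 11 lower in NCS and the 3 of 11 higher in CCS lay near these shares. The largest fall was that of *FvH4_3g29980* (CslA2), whose relatives make the mannan backbone of glucomannan. It had 6.26, 9.80 and 9.39 RPKM in AH, 2.83, 3.10 and 3.28 in NCS, 1.70, 2.03 and 1.54 in ACS and 1.92, 2.38 and 2.28 in CCS. All AH libraries lay above all others, and the NCS libraries above those of both cold-stored conditions. Its log2 fold change from AH was -1.41 in NCS (SE 0.18, limma adjusted p = 0.000952), -2.19 in ACS (SE 0.19, adjusted p = 0.000169) and -1.88 in CCS (SE 0.19, adjusted p = 0.000356).

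The largest rises were those of CslE1 genes, a subfamily whose product has not been settled. Of these, *FvH4_3g42900* was also measured by RT-PCR in the study, and its primers are shown because they mark the stretch that was amplified.
FvH4_3g42900 forward: gttttgtgaaggaagcaatcag
FvH4_3g42900 reverse: gcaacttccccttgtccttt
It had 0 reads in the 3 AH libraries, 0.570, 0.513 and 0.376 RPKM in NCS, 0.561, 0.621 and 0.734 in ACS and 0.146, 0.143 and 0.229 in CCS. The CCS libraries lay below all of NCS and ACS, which overlapped with each other. With a floor of 3 counts over the AH group, its mean was at least 160-fold higher in NCS, at least 210-fold in ACS and at least 56.8-fold in CCS, which covers counting error only. It was tested against AH in ACS alone, since it lay below the filter in the other pairs with AH. There it met the filter only through the ACS libraries, and the log2 fold change was 2.88 (limma adjusted p = 3.77e-06). It was lower in CCS than in ACS by 1.45 on the log2 scale (SE 0.15, limma adjusted p = 0.00167), just inside the DEG limit of 1.5. Between ACS and CCS, too, it met the filter only through the ACS libraries. It was a DEG between ACS and CCS when ACS replicate 1 or CCS replicate 3 was left out and with voom. The second description of the table names this gene an RNA polymerase subunit, as it does 32 of the 120 members, 8 of them Csl genes.

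A pair of further CslE1 genes that lie in a run of neighbouring identifiers, chosen after their values had been seen, were present at harvest. *FvH4_3g42750* was at 1.04, 1.16 and 1.09 RPKM in AH, 2.65, 2.57 and 3.03 in NCS, 6.02, 5.63 and 5.23 in ACS and 3.03, 3.01 and 3.09 in CCS. The ACS libraries were the highest, the AH libraries the lowest, and NCS and CCS overlapped. Its log2 fold change was 2.26 from AH to ACS (SE 0.09, limma adjusted p = 5.36e-06) and -0.86 from ACS to CCS (SE 0.06, adjusted p = 0.000599). *FvH4_3g42760* had means of 0.251, 0.755, 1.15 and 0.783 RPKM in AH, NCS, ACS and CCS, in the same order, with a change of 1.85 from AH to ACS (adjusted p = 6.09e-05). Against AH, *FvH4_3g42760* met the filter only through the stored libraries. The CslD3 gene *FvH4_5g23130*, whose Arabidopsis namesake acts in root hair growth, was at 13.8, 19.5 and 29.9 RPKM in AH, 18.2, 19.6 and 18.4 in NCS, 43.1, 44.9 and 31.2 in ACS and 23.8, 26.2 and 22.8 in CCS. All ACS libraries were above all others, and AH overlapped with NCS and CCS. It was higher in ACS than in NCS (1.07, limma adjusted p = 0.0014) and than in AH (0.97, adjusted p = 0.0362), the latter lost without AH replicate 1 (0.70, adjusted p = 0.0633) and without AH replicate 2 or ACS replicate 1 or 2 (adjusted p of up to 0.113), and with no filter (adjusted p = 0.0614). The most abundant Csl gene, *FvH4_5g11680* (CslG3), had means of 34.4 ± 4.64 RPKM in AH (SD, n = 3), 36.5 ± 1.19 in NCS, 29.0 ± 1.88 in ACS and 39.8 ± 2.65 in CCS. It did not pass against AH, other than in ACS without AH replicate 1 (-0.35, adjusted p = 0.0137), and it was 0.45 higher in CCS than in ACS (limma adjusted p = 0.00894). The next 3 Csl genes were chosen after their values had been seen. The CslB4-type *FvH4_6g42800* was at 1.66, 3.80, 3.14 and 2.77 RPKM in the means of AH, NCS, ACS and CCS, and was higher in NCS than in AH (limma adjusted p = 0.0103). Of the CslG2 neighbours, *FvH4_4g02990* rose from 0.731 RPKM in AH to 1.09, 1.52 and 1.39 (limma adjusted p = 0.00451, 0.000258 and 0.00076), and *FvH4_4g02981*, at 7.74, 10.7, 11.8 and 8.46 RPKM, was 0.62 higher in ACS than in AH on the log2 scale (adjusted p = 0.0475) and 0.34 lower in CCS than in NCS (adjusted p = 0.0135). The former was lost without any library but AH replicate 3 (adjusted p = 0.0612 to 0.144) and the latter with all 12 libraries in one fit (adjusted p = 0.126).

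Of the 6 COBRA genes tested, 2 rose and 4 fell in NCS, 2 rose and 2 fell in ACS and 3 rose and 3 fell in CCS. Beside them, 14.7, 21.9 and 23.6% of all genes were higher and 21.4, 20.9 and 13.9% lower. The 2 most abundant COBRA genes were lower in NCS and CCS than in AH, and a pair of neighbours rose. *FvH4_4g19240*, described as COBRA-like protein 7, was at 43.1, 55.4 and 52.2 RPKM in AH, 34.2, 36.7 and 35.9 in NCS, 38.2, 42.8 and 43.9 in ACS and 32.9, 29.3 and 32.1 in CCS. AH and ACS overlapped, and CCS lay lowest. The log2 fold change from AH was -0.49 in NCS and -0.67 in CCS (limma adjusted p = 0.0133 and 0.00453), and -0.27 in ACS did not pass (adjusted p = 0.123). Without AH replicate 1 that of ACS passed (-0.37, adjusted p = 0.0166), and without NCS replicate 1 that of NCS was lost (adjusted p = 0.0585). *FvH4_5g13550* had 27.6 ± 3.17 RPKM in AH (SD, n = 3), 15.3 ± 0.471 in NCS, 16.9 ± 1.57 in ACS and 21.2 ± 0.717 in CCS. It fell from AH by 0.83, 0.70 and 0.37 on the log2 scale (limma adjusted p = 0.000881, 0.00355 and 0.0315). Its level in CCS was above that in NCS (0.46, adjusted p = 0.000561) and ACS (0.33, adjusted p = 0.027, or 0.26 and 0.0992 after median-of-ratios scaling). For *FvH4_5g13550*, the fall from AH to CCS was lost without any library but AH replicate 1 (adjusted p = 0.0721 to 0.114), and the difference from ACS without ACS replicate 2 or any CCS library (adjusted p = 0.0603 to 0.0813) or with no filter (adjusted p = 0.0628).

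A run of 3 COBRA genes with neighbouring identifiers on chromosome 6 was chosen after its values had been seen, and counts of such neighbours may share reads. *FvH4_6g46460* was at 5.02, 6.43 and 6.32 RPKM in AH, 18.9, 18.5 and 18.8 in NCS, 24.3, 28.5 and 28.9 in ACS and 17.4, 18.7 and 20.0 in CCS. All stored libraries were above all AH libraries, and ACS was above the other 2 stored conditions. Its log2 fold changes from AH were 1.65 (SE 0.11), 2.19 (SE 0.13) and 1.65 (SE 0.12), all DEGs (limma adjusted p = 5.4e-05, 2.57e-05 and 8.98e-05). *FvH4_6g46470* rose from 2.42 RPKM in AH to 6.51, 9.0 and 7.0, by 1.39, 1.85 and 1.48 on the log2 scale (limma adjusted p = 2.72e-05, 8.23e-06 and 0.000246). The third of the run, *FvH4_6g46530*, differed from both, since it was highest in CCS. It was at 2.68, 3.19 and 2.75 RPKM in AH, 2.14, 2.04 and 2.14 in NCS, 2.62, 2.76 and 2.67 in ACS and 4.20, 4.51 and 4.53 in CCS. The CCS libraries were above all others, by 0.60 over AH, 1.03 over NCS and 0.70 over ACS on the log2 scale (limma adjusted p = 0.00277, 2.19e-05 and 0.000633). The scarce *FvH4_5g28720*, also chosen after its values had been seen, fell from 1.08 RPKM in AH to 0.567, 0.431 and 0.425, by 0.82, 1.15 and 1.16 on the log2 scale (limma adjusted p = 0.00185, 0.000344 and 0.000295). Against ACS and CCS it met the filter only through the AH libraries.

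The GH9 cellulases were the most abundant members, and most of those tested fell after harvest. In NCS 6 of 8 were lower and 2 higher, in ACS 7 of 9 were lower and 2 higher, and in CCS 6 of 9 were lower and 2 higher. Among all genes 21.4, 20.9 and 13.9% were lower and 14.7, 21.9 and 23.6% higher, so that the rises in ACS and CCS lay near that share. The most abundant member of all, *FvH4_4g33940* (GH9B1, a secreted type), was at 795, 895 and 814 RPKM in AH, 671, 732 and 677 in NCS, 519, 539 and 576 in ACS and 567, 530 and 580 in CCS. The conditions fell into the order AH, NCS and then the overlapping ACS and CCS. Its log2 fold change from AH was -0.27 in NCS (SE 0.08, limma adjusted p = 0.0479), -0.61 in ACS (SE 0.09, adjusted p = 0.00147) and -0.58 in CCS (SE 0.09, adjusted p = 0.00222). The fall in NCS rested on the setting and was -0.20 after median-of-ratios scaling (adjusted p = 0.157), and it was lost without any library but AH replicate 1 (adjusted p = 0.0683 to 0.165) and in 4 settings that keep all libraries (adjusted p = 0.0513 to 0.157). *FvH4_5g04490* (GH9C2, of a type that carries a carbohydrate-binding module) had 433, 551 and 513 RPKM in AH, 191, 205 and 193 in NCS, 157, 168 and 173 in ACS and 266, 260 and 270 in CCS. No 2 conditions overlapped, and CCS lay between AH and the other stored fruit. Its falls from AH on the log2 scale were by 1.34, 1.58 and 0.90 (limma adjusted p = 0.000122, 5.6e-05 and 0.000768), and in CCS it was 0.43 above NCS (adjusted p = 0.000651) and 0.68 above ACS (adjusted p = 0.000834).

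Other GH9 genes differed in the order of the conditions. *FvH4_2g25990* (GH9B13) had 1.57, 1.95 and 1.84 RPKM in AH, 0.362, 0.355 and 0.394 in NCS, 0.903, 0.993 and 1.02 in ACS and 1.97, 1.65 and 2.03 in CCS. CCS overlapped with AH, and both were above ACS, which was above NCS. The log2 fold change was -2.0 from AH to NCS (SE 0.10, limma adjusted p = 1.56e-05), -0.81 from AH to ACS (adjusted p = 0.000988) and 0.08 from AH to CCS (adjusted p = 0.67). From NCS to CCS it rose by 2.07 (SE 0.09, limma adjusted p = 1.09e-05) and from ACS to CCS by 0.89 (SE 0.09, adjusted p = 0.0018). In pairs with NCS it met the filter only through the libraries of the other condition. The 3 GH9 genes named next were chosen after their values had been seen. *FvH4_2g38670* (GH9B7) had 14.9, 15.4 and 14.5 RPKM in AH and means of 5.36, 7.84 and 9.46 RPKM in NCS, ACS and CCS, with no overlap between any 2 conditions, and fell by 1.46, 0.92 and 0.66 from AH on the log2 scale (limma adjusted p = 1.43e-05, 0.000108 and 0.000643). *FvH4_3g23380* (GH9B8) was highest in NCS, at 67.9, 69.1 and 67.8 RPKM, and lowest in CCS, at 34.4, 29.2 and 32.2. AH was at 53.9, 51.8 and 46.9 RPKM and ACS at 39.5, 41.7 and 43.9. Its log2 fold change from NCS was -0.71 in ACS and -1.10 in CCS (limma adjusted p = 0.000144 and 5.54e-05). *FvH4_5g03220* (GH9B15) was lowest in ACS, at 4.96 ± 0.523 RPKM (SD, n = 3) beside 10.8 ± 0.991 in AH, 7.66 ± 0.164 in NCS and 7.37 ± 0.282 in CCS, and it fell by 1.11 from AH to ACS on the log2 scale (limma adjusted p = 0.000316). The cellulase of another family (family 5), *FvH4_4g25340*, had means of 11.5, 7.87, 6.84 and 8.30 RPKM, and fell by 0.54, 0.74 and 0.46 from AH on the log2 scale (limma adjusted p = 0.00437, 0.00126 and 0.0117). The last of these was lost without AH replicate 2 or CCS replicate 2 (adjusted p = 0.0506 and 0.0548).

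**Figure D4:**
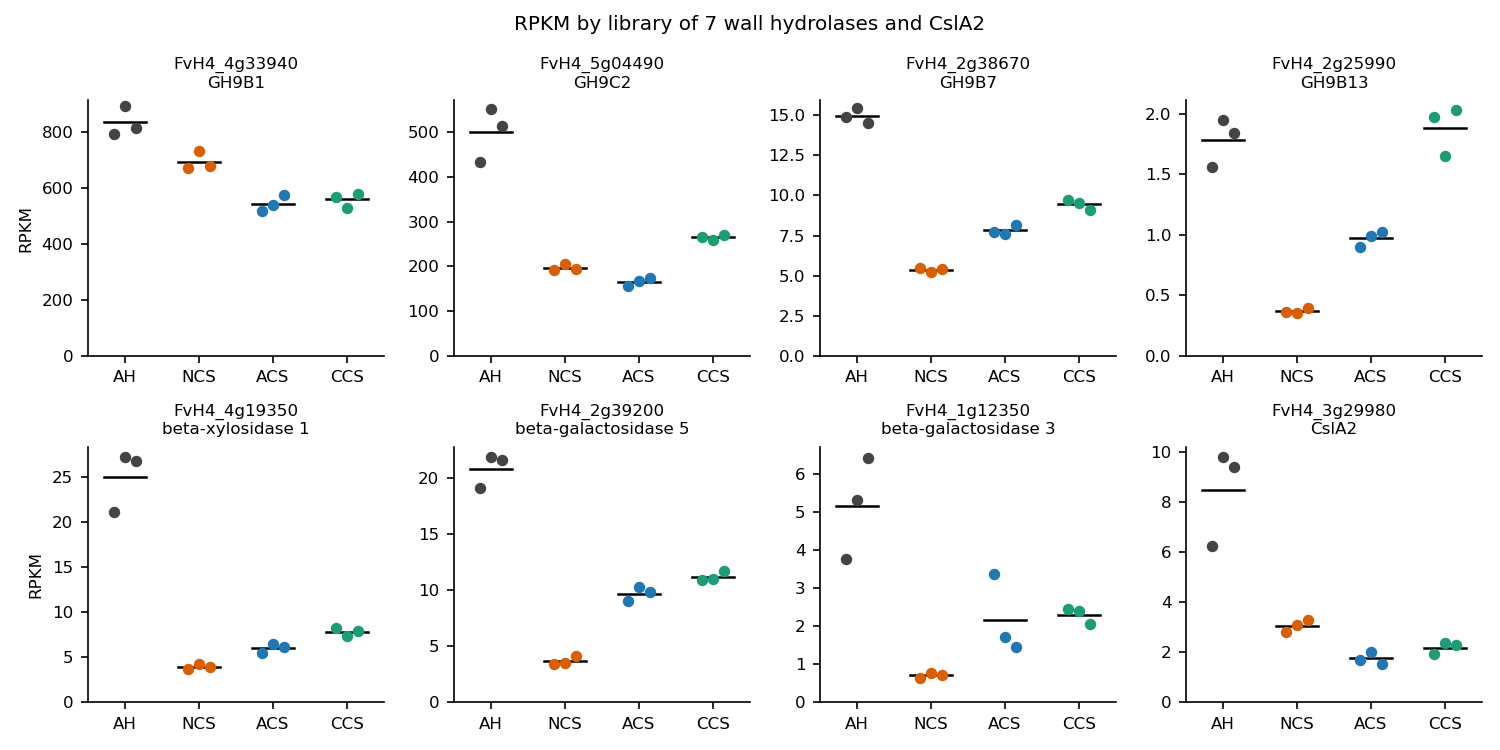
RPKM (y axes, from 0, each on its own scale) of 4 GH9 cellulases, a beta-xylosidase, 2 beta-galactosidases and CslA2 in the 12 libraries, by condition (x axis). Points are libraries and bars are means of 3. *FvH4_2g25990* lay at 1.65 to 2.03 RPKM in CCS beside 1.57 to 1.95 in AH, and *FvH4_4g19350* lay at 21.1 to 27.2 RPKM in AH and at 8.23 or below elsewhere.

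Among the GH9 cellulases tested, 1 was nearly silent at harvest. *FvH4_2g00610*, described as cellulase 3, was likewise measured by RT-PCR, and its primers are shown for the same reason.
FvH4_2g00610 forward: acttggttctgcggtttgc
FvH4_2g00610 reverse: caaatttgttatcccagctgaag
It had 6, 2 and 0 reads in the AH libraries, 267, 255 and 220 in NCS, 645, 550 and 524 in ACS and 403, 252 and 365 in CCS. On the RPKM scale these were 0.026 or less in AH, 1.09, 1.29 and 1.27 in NCS, 2.36, 2.54 and 2.86 in ACS and 1.77, 1.26 and 1.55 in CCS. ACS was above all other libraries, and NCS and CCS overlapped. In each comparison with AH it met the filter only through the stored libraries. The log2 fold change from AH was 3.58 in NCS (SE 0.12, limma adjusted p = 4.02e-06), 4.60 in ACS (SE 0.12, adjusted p = 1.55e-06) and 3.87 in CCS (SE 0.15, adjusted p = 5.94e-06), and it was 0.73 lower in CCS than in ACS (adjusted p = 0.0108). It is the last of 3 neighbouring identifiers on chromosome 2 described as cellulases, and the other 2 did not reach 0.5 RPKM. The nearer of these was also near 0 at harvest, with 5 reads over the AH libraries and 98, 189 and 132 over those of NCS, ACS and CCS. Without the filter it was a DEG in ACS and in CCS against AH. A second GH9A1 gene, *FvH4_5g11730*, chosen after its values had been seen, was at 0.180 RPKM in AH and 0.192 in NCS and at 0.676 in ACS and 0.615 in CCS. It was higher in ACS by 1.41 and in CCS by 1.30 than in NCS on the log2 scale (limma adjusted p = 6.88e-05 and 2.48e-05). There it met the filter only through the cold-stored libraries.

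Most beta-galactosidases tested fell against AH, and the most abundant one rose in NCS and fell in ACS. In NCS 5 of 7 were lower and 1 higher, in ACS 7 of 7 were lower and in CCS 5 of 8 were lower. Among all genes 21.4, 20.9 and 13.9% were lower, and 14.7% were higher in NCS. *FvH4_2g27470* (beta-galactosidase 16) was at 99.3, 116 and 117 RPKM in AH, 136, 147 and 139 in NCS, 84.0, 85.8 and 91.1 in ACS and 97.6, 91.7 and 98.5 in CCS. NCS was above all other libraries, and its log2 fold change was 0.35 from AH to NCS (limma adjusted p = 0.0264), -0.69 from NCS to ACS (adjusted p = 0.000188) and -0.55 from NCS to CCS (adjusted p = 0.000376). The first of these was lost without AH replicate 2 or any NCS library (adjusted p = 0.0554 to 0.1). From AH to ACS it fell by 0.35 on the log2 scale (limma adjusted p = 0.0258), a call lost without any library but AH replicate 1 (adjusted p = 0.0546 to 0.0954). *FvH4_2g39200* (beta-galactosidase 5) had 19.1, 21.9 and 21.6 RPKM in AH, 3.43, 3.55 and 4.12 in NCS, 9.04, 10.3 and 9.80 in ACS and 10.88, 10.99 and 11.72 in CCS. No 2 conditions overlapped, with NCS lowest. Its falls from AH on the log2 scale were by 2.46 (SE 0.10), 1.09 (SE 0.09) and 0.89 (SE 0.09) (limma adjusted p = 8.32e-06, 0.000143 and 0.00035), and CCS was 1.58 above NCS (adjusted p = 2.17e-05). *FvH4_1g12350* (beta-galactosidase 3) was at 3.76, 5.31 and 6.42 RPKM in AH, 0.653, 0.762 and 0.717 in NCS, 3.36, 1.71 and 1.45 in ACS and 2.46, 2.39 and 2.06 in CCS. Relative to its mean it varied most within ACS, with 2.17 ± 1.04 RPKM (SD, n = 3) beside 5.17 ± 1.33 in AH. The first ACS library was below all of AH and above all of CCS. Its log2 fold change was -2.67 in NCS (SE 0.19, limma adjusted p = 6.91e-05), -1.27 in ACS (SE 0.33, adjusted p = 0.0219) and -1.10 in CCS (SE 0.20, adjusted p = 0.00483). The call of *FvH4_1g12350* in ACS was lost when AH replicate 2 or 3 or ACS replicate 2 or 3 was left out (adjusted p = 0.0518 to 0.0751). *FvH4_6g33540* (beta-galactosidase 17) had means of 14.4, 11.4, 9.10 and 11.1 RPKM, and fell by 0.33, 0.66 and 0.37 on the log2 scale (limma adjusted p = 0.0258, 0.00189 and 0.0249), of which the first and the last were lost without any library but AH replicate 1 (adjusted p = 0.0505 to 0.0948). *FvH4_1g25130* (beta-galactosidase 10), chosen after its values had been seen, was at 0.716, 0.309, 0.524 and 0.664 RPKM in the means of AH, NCS, ACS and CCS, and its fall in NCS was by 0.99 on the log2 scale (limma adjusted p = 0.00131). For that fall it met the filter only through the AH libraries.

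The beta-xylosidase *FvH4_4g19350* (beta-xylosidase 1) had one of the largest falls of any member. It was at 21.1, 27.2 and 26.7 RPKM in AH, 3.74, 4.24 and 3.89 in NCS, 5.49, 6.46 and 6.12 in ACS and 8.23, 7.35 and 7.93 in CCS. No 2 conditions overlapped, and among the stored fruit NCS was lowest and CCS highest. The log2 fold change from AH was -2.62 in NCS (SE 0.12, limma adjusted p = 1.1e-05), -2.03 in ACS (SE 0.12, adjusted p = 3.17e-05) and -1.65 in CCS (SE 0.12, adjusted p = 8.42e-05), each a DEG. CCS was 0.97 above NCS (SE 0.07, limma adjusted p = 9.53e-05) and 0.38 above ACS (SE 0.08, adjusted p = 0.0176), the latter 0.30 after median-of-ratios scaling (adjusted p = 0.0586) and lost without CCS replicate 3 (adjusted p = 0.0567). The second beta-xylosidase, *FvH4_5g39430*, stayed at 0.0164 to 0.0544 RPKM in all libraries and was not tested.

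Beta-glucosidases held some of the steepest rises, although most of the 16 tested did not pass in any comparison with AH. In NCS 4 of 13 were higher and 2 lower, in ACS 4 of 15 were higher and 2 lower, and in CCS 4 of 16 were higher and 1 lower. Over all genes the shares higher were 14.7, 21.9 and 23.6%, so that in ACS and CCS the count of rises was near that of genes at large. The shares lower were 21.4, 20.9 and 13.9% over all genes and 15.4, 13.3 and 6.25% of the beta-glucosidases tested. Many of these enzymes act on small glucosides, such as those of hormones and defence compounds, so that their place in the wall is not given by the name. The run of 8 neighbouring identifiers from *FvH4_3g43490* to *FvH4_3g43520* held 4 genes that reached 0.5 RPKM, and they moved in different directions. *FvH4_3g43490* (beta-glucosidase 17) was at 0.043, 0.0226 and 0.0248 RPKM in AH, 0.0664, 0.0935 and 0.0486 in NCS, 2.5, 3.0 and 2.85 in ACS and 2.13, 2.16 and 2.00 in CCS. The 6 cold-stored libraries were far above the 6 others, and ACS was above CCS. Against AH and NCS it met the filter only through the cold-stored libraries. Its log2 fold change was 4.47 from AH to ACS (SE 0.11, limma adjusted p = 1.2e-06), 4.08 from AH to CCS (SE 0.09, adjusted p = 1.29e-06), 4.09 from NCS to ACS (SE 0.11, adjusted p = 3.56e-06) and 3.70 from NCS to CCS (SE 0.10, adjusted p = 2.68e-06). From AH to NCS, where it lay below the filter, the fit without a filter gave 0.38 (SE 0.12, adjusted p = 0.0819).

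*FvH4_3g43501* (beta-glucosidase 13) also rose, but at 20°C as well. It was at 0.439, 0.604 and 0.478 RPKM in AH, 2.83, 3.24 and 2.60 in NCS, 6.89, 7.46 and 6.75 in ACS and 4.30, 4.05 and 3.78 in CCS. No 2 conditions overlapped, and the changes from AH were 2.31, 3.56 and 2.78 on the log2 scale (limma adjusted p = 2.59e-05, 3.19e-06 and 1.03e-05). Its neighbour *FvH4_3g43502* (beta-glucosidase 12) had means of 0.897, 0.282, 0.316 and 0.197 RPKM in AH, NCS, ACS and CCS, and it fell from AH by 1.38, 1.26 and 1.75 on the log2 scale (limma adjusted p = 0.000114, 0.000205 and 0.00011). This neighbour met the filter only through the AH libraries. The last gene of the run, *FvH4_3g43520* (beta-glucosidase 15), was the most abundant of it, with means of 10.6, 13.3, 8.26 and 8.70 RPKM in the same order, and was lower in both cold-stored conditions than in NCS (-0.68 and -0.60, limma adjusted p = 0.000828 and 0.000153). *FvH4_5g16360*, another beta-glucosidase 15, was at 0.43, 0.21 and 0.28 RPKM in AH, 1.63, 1.58 and 1.58 in NCS, 2.54, 2.46 and 2.58 in ACS and 1.82, 1.82 and 1.74 in CCS. All stored libraries were above AH, with ACS highest, and the changes were 2.11, 2.74 and 2.27 on the log2 scale (limma adjusted p = 0.000206, 5.81e-05 and 0.000174). Against AH it met the filter only through the stored libraries. The small rise of *FvH4_5g16360* from NCS to CCS (0.16, limma adjusted p = 0.0272) turned to -0.01 after median-of-ratios scaling (adjusted p = 0.871) and was lost without any library but CCS replicate 3 (adjusted p = 0.0539 to 0.0832). *FvH4_5g39140*, of the GBA2 type that in animals cleaves glucosylceramide, was at 7.11, 8.32 and 8.56 RPKM in AH, 16.4, 17.1 and 16.7 in NCS, 13.7, 14.3 and 13.9 in ACS and 10.1, 9.54 and 10.1 in CCS. The order NCS, ACS, CCS and AH held with no overlap, and CCS was 0.75 below NCS and 0.49 below ACS (limma adjusted p = 5.95e-05 and 0.00171).

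**Figure D5:**
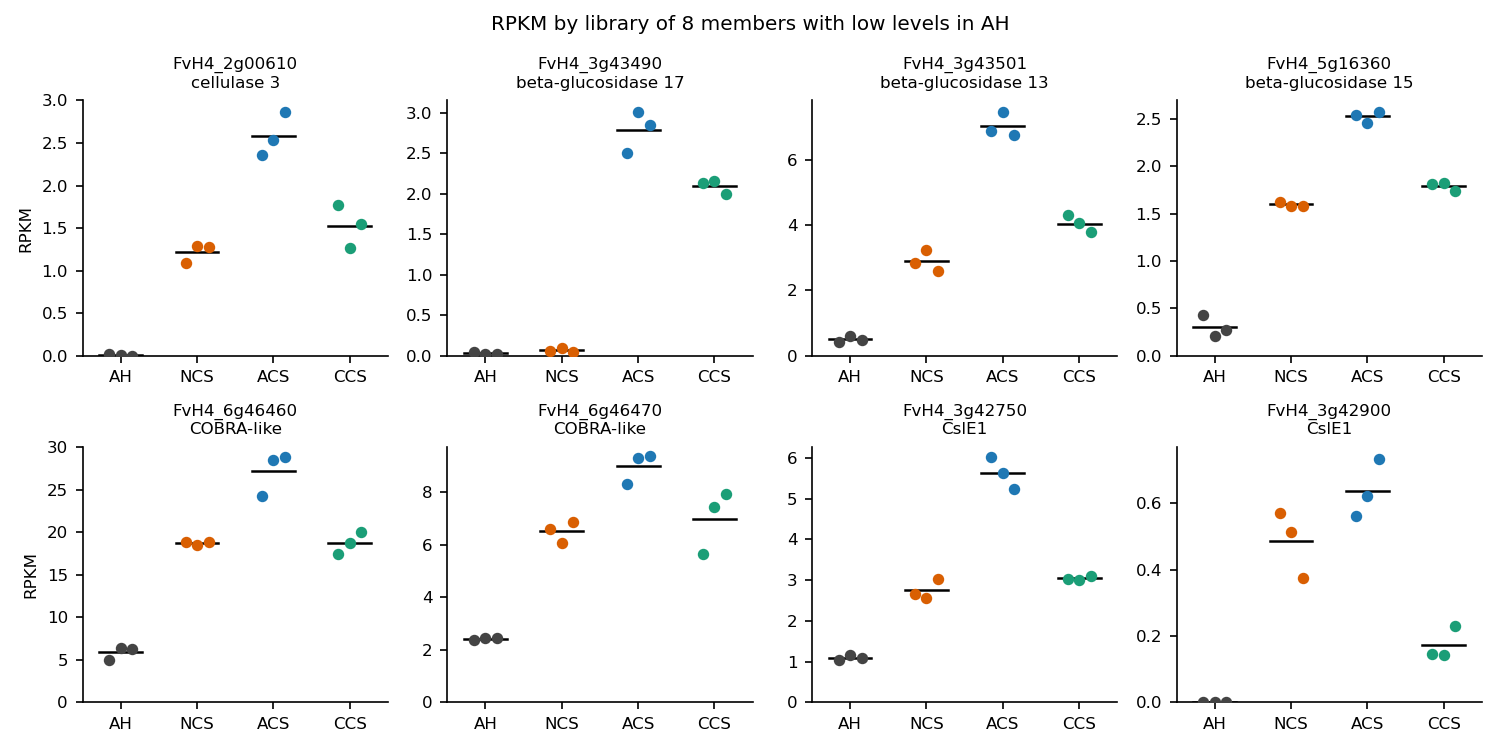
RPKM (y axes, from 0, each on its own scale) of 8 members with low levels in AH, in the 12 libraries by condition (x axis). Points are libraries and bars are means of 3. *FvH4_3g43490* lay at 0.0935 RPKM or below in AH and NCS and at 2.0 to 3.0 RPKM in ACS and CCS, whereas *FvH4_6g46460* lay at 17.4 RPKM or more in all stored libraries.

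Between the cold-stored conditions the classes differed in how many genes passed, to be read beside the 18.4% of all genes that were higher and 10.3% that were lower in CCS. From ACS to CCS, 4 of 10 GH9 cellulases were higher and 2 lower, 2 of 8 beta-galactosidases were higher and 0 lower, and 0 of 15 beta-glucosidases were higher and 5 lower. Among the Csl genes 1 of 12 was higher and 5 were lower, and of the COBRA genes 2 of 5 were higher and 2 lower. After median-of-ratios scaling the GH9 counts were 3 and 2, those of the beta-galactosidases 1 and 0, of the beta-glucosidases 0 and 5, of the Csl genes 1 and 5 and of the COBRA genes 1 and 2, while the cellulose synthases had 0 and 1 in place of 2 and 1. That scaling gave 1369 higher and 2046 lower among all 16680 genes. Genes called higher in CCS included *FvH4_2g25990*, *FvH4_5g04490* and *FvH4_4g19350*, and genes called lower included *FvH4_2g00610*, *FvH4_3g43501*, *FvH4_3g42750* and *FvH4_6g46460*, with the values given above. Whether these differences came from CO2 was not tested, since each condition was held in its own container.

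Many members lie next to each other. By their identifiers, 54 of the 120 fell into 16 runs of the same class with fewer than 5 other genes between neighbours, the longest being the 8 beta-glucosidases described above, 6 CslE1 genes and 6 beta-glucosidases on chromosome 7. Counts for such near copies are uncertain where reads fit more than 1 of them. Among the other wall genes, a list of 90 by description that is mostly fasciclin-like and trichome birefringence-like proteins and also holds sucrose synthases and alpha-fucosidases, 4 of 37 tested were higher and 21 lower in NCS than in AH, 10 of 40 higher and 18 lower in ACS, and 12 of 42 higher and 14 lower in CCS. Among all genes 14.7, 21.9 and 23.6% were higher and 21.4, 20.9 and 13.9% lower. The median log2 fold changes of the list were -0.43, -0.26 and -0.03, beside -0.07, 0.01 and 0.07 for all genes. From NCS to ACS 16 of 37 of the list were higher and 7 lower, from NCS to CCS 22 of 39 were higher and 7 lower, and from ACS to CCS 9 of 40 were higher and 6 lower. Among all genes 30.9, 37.6 and 18.4% were higher and 17.1, 14 and 10.3% lower. The summed level of the list was 545 to 593 RPKM for AH and 368 to 401, 452 to 484 and 494 to 534 RPKM for NCS, ACS and CCS, so that NCS was lowest and CCS lay between ACS and AH.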

How the data were processed

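RNA of 12 libraries (4 conditions, 3 libraries each, grouped by the condition and replicate in their labels) was used. The authors called bases with CASAVA 1.8, checked reads with FastQC, removed adapters with Cutadapt 1.16.6, aligned with HISAT2 2.1.0 and counted in SeqMonk without strand, so that overlapping genes can share reads. The RPKM values deposited by the authors are scaled to the length of each gene and the size of each library, with no filter and no pooling. The table also holds the log2 fold change of each pair of conditions that the authors had from DESeq2, and these columns were not used. Levels of different genes are compared only on this per-length scale.

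Since RPKM values are not counts, limma 3.58.1 in R 4.3.3 was fitted to the 6 libraries of each pair (pseudocount 0.1, eBayes without trend, Benjamini-Hochberg adjustment over all genes tested). No exact test of 3 against 3 libraries can reach a p below 0.1, so the p-values rest on the model. Reads were recovered from the RPKM steps for 30994 of 30995 genes above 0, within 0.002 of a whole number. The shortest gene length that gave whole reads was taken, so that reads of genes with few reads in every library may be understated, and read counts and the floor made from them carry this limit. On simulated libraries for AH against NCS, 193 of 195 changed genes among 15847 were called as DEGs and 0 unchanged ones, while 17 unchanged ones passed the adjusted p. The seeded changes all lay beyond the DEG limit, with the same dispersion for every gene. No replicate deviated as AH replicate 1 did, so the simulation cannot tell how the fit deals with smaller changes or such a replicate.

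Named were members whose identifier the paper or its primer list gives, up to 3 DEGs with the largest rise and fall per comparison, the 2 most abundant of each class and each cellulose synthase tested. A further 15 are marked as chosen after their values were seen. The members and lists were chosen with earlier results of these data known. Alternatives were a pseudocount of 1, no filter, all 12 libraries in one fit, the replicate number as a block, median-of-ratios scaling, eBayes with trend, voom on recovered reads and each library left out. Python 3.11.15 with numpy 2.4.6, pandas 2.3.3 and matplotlib 3.10.9 was used. Sequences of genes, promoters and proteins were not used here.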

Additional observations from a re-analysis of the deposited data

How the results depend on the processing

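The number of members called as DEGs was 8, 12, 8, 1, 4 and 0 in AH against NCS, ACS and CCS, NCS against ACS and CCS, and ACS against CCS. A pseudocount of 1 RPKM gave 4 in AH against NCS, 5 in AH against CCS and 1 in NCS against CCS. Median-of-ratios scaling gave 2 in NCS against CCS, and voom gave 3 in NCS against ACS and 1 in ACS against CCS. Leaving out single libraries gave 8 to 9, 12 to 14, 8 to 9, 1 to 2, 4 to 4 and 0 to 1, where the 2 in NCS against ACS came without ACS replicate 2 or 3 (*FvH4_1g12350* added) and the 1 in ACS against CCS without ACS replicate 1 or CCS replicate 3 (*FvH4_3g42900*). With the replicate block the counts of DEGs were 8, 12, 8, 1, 4 and 0, and the same members were called. Fewer passed the adjusted p in AH against ACS, with 12 higher and 19 lower in place of 15 and 23. Among the named members, the block lost 16 calls at that limit and gained 4. Lost were *FvH4_1g12350* in ACS, *FvH4_5g13550* in CCS and *FvH4_6g33540* in NCS against AH (limma adjusted p = 0.0705, 0.0713 and 0.0573). *FvH4_5g23130* and *FvH4_4g02981* in ACS against AH were lost as well. By the labels same-numbered libraries share only a number, and the correlation of their deviations ran from -0.468 to 0.389. Without the filter 19 members rather than 12 were higher from AH to CCS, since more were tested. The direction of *FvH4_5g16360* from NCS to CCS reversed to -0.011 after median-of-ratios scaling. Of 3315 values of the 45 named members under the alternatives, 2983 kept their direction and side of the threshold, 224 lost the call, 63 gained it and 44 without a call changed sign. That scaling moved the median log2 fold change of all genes from 0.07 to -0.03 in AH against CCS, 0.08 to -0.02 in NCS against ACS and 0.14 to -0.03 in NCS against CCS, and the share of higher among all calls from 62.9 to 50.2%, 64.4 to 47.6%, 72.9 to 43.8% and, in ACS against CCS, 64.2 to 40.1%.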
